A study of Mus musculus with 3 samples.

Results

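The replication-dependent histone genes encode the core histones H2A, H2B, H3 and H4 and the linker histone H1 that package newly copied DNA. They were taken as the gene IDs of the deposited table whose GENCODE M21 symbol begins with Hist1h, Hist2h, Hist3h or Hist4h, which gave 68 genes of 50043 IDs. The annotation holds 70 such genes, and Hist1h2bh and Hist1h2bm have no row in the table. Of the 68, 65 are annotated as protein-coding and 3 as pseudogenes (Hist1h2aj, Hist1h2al and Hist3h2bb-ps). By class there were 6 H1, 20 H2A, 17 H2B, 12 H3 and 13 H4 genes, and by cluster 54 Hist1, 10 Hist2, 3 Hist3 genes and the single gene Hist4h4.

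RNA was sequenced from KH2 mouse embryonic stem cells carrying an inducible knockout of Pold3, an accessory subunit of the polymerase that copies the lagging strand. There was 1 library from each of passages P0, P1 and P2, and the labels give neither the inducing agent nor the time of induction relative to P0. The design text names changes of the transcriptome between passages as the question. Single libraries leave every difference between passages without replicates, so no p-values are reported. The values rest on 23213528 (P0), 18059914 (P1) and 22405670 (P2) reads, totals found from the values themselves. The unit is FPKM, fragments scaled to the length of the gene and the size of the library. Pold3 measured 49.2, 13.0 and 11.6 FPKM at P0, P1 and P2. All 8 stem cell markers examined, among them Pou5f1 and Nanog, were above 100 FPKM in each library. Between P0 and P2, 0 of 8 differed by 2-fold, beside 7.88% of all genes, and 1 of 8 did with median-of-ratios scaling. Esrrb measured 221, 127 and 118 FPKM, and 5 of the 8 were lower at P2 than at P0 and 3 higher. Of 10 fibroblast markers, listed because such cells often serve as feeders, Col1a1 rose from 1.98 to 5.63 and 7.09 FPKM and Thy1 from 4.21 to 9.83 and 11.0, while Postn and Fap were at 0 and Lum, Dcn and Col3a1 under 1 FPKM throughout. The fibroblast list summed to 7.21, 16.9 and 19.5 FPKM, and its part in the histone values was not tested.

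Histone messages of this kind are made mostly in S phase, when the cell needs histone protein for new DNA, and fall quickly when replication stops or the cell leaves S phase. They are the one class of animal mRNA that normally ends without a poly(A) tail. The 3′ end is formed by cutting just after a short stem-loop, which the stem-loop binding protein SLBP holds, guided by the U7 small nuclear RNA. Many copies of each class lie in clusters, the largest on mouse chromosome 13, and a gene of the H2A class often stands head to head with one of the H2B class. A few copies can also be made as longer messages with a poly(A) tail.

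The stem-loop is shown because it is the feature that separates these messages from others and bears on which copies a library can hold. The histone stem-loop motif, in which some stem and loop positions may vary, was searched on the sense strand of the M21 transcripts. It was found in 40 of the 68 genes (58.8%), against 12 of 55382 genes outside the set (0.0217%). Those 12 include the 2 histone genes without a row and the variant gene H2afx. The letters of 24 genes read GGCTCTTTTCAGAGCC, of 7 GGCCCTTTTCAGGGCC, of 6 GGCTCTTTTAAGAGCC, of 2 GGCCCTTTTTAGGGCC and of 1 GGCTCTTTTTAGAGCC. A gene without a match may only have a model that stops before it, as the models of 11 genes hold the coding sequence alone. The sites of 6 of the measured genes follow, 5′ to 3′ as DNA letters of the transcript (GENCODE M21, GRCm38), with the 16 bases of the motif in capitals.
Hist1h2ap: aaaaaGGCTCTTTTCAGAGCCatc
Hist1h4i: ttaaaGGCCCTTTTTAGGGCCaccac
Hist1h4d: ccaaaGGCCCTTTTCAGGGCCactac
Hist1h3c: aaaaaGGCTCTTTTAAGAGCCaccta
Hist1h2bk: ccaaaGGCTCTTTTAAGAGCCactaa
Hist1h1c: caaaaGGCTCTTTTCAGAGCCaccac
In each of the 6 the first and last 6 letters can pair, and the 4 between them form the loop. The site of Hist1h2ap stops 3 bases after the motif, because its annotated transcript ends there.

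Most of the genes were low. Of the 68, 14 were listed at 0 in all 3 libraries, 33 were above 0 but stayed under 1 FPKM, 17 peaked between 1 and 5 FPKM and 4 reached 5 FPKM. At P0 the median was 0.438 FPKM and 19 genes (27.9%) reached 1 FPKM, beside 24.6% of all IDs. At P1 and P2, 14 and 15 genes reached it (20.6% and 22.1%), beside 26.01% and 26.25% of all IDs. At P0, 57 of the 68 genes had fewer than 20 reads, so counting error is wide for single genes. On a gene of 500 bases, 3 reads were worth 0.258 FPKM at P0, 0.332 at P1 and 0.268 at P2.

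Summed over all 68 genes, histone FPKM was 119 at P0, 69.4 at P1 and 67.0 at P2. Both later libraries lay well below P0 and close to each other. Reads per library total were 0.581 of P0 at P1 (exact 95% interval 0.531 to 0.636, from 1563 and 707 reads) and 0.583 of P0 at P2 (0.536 to 0.633, from 879 reads at P2). Between P1 and P2 the ratio was 1.002 with an interval of 0.907 to 1.11. Such intervals compare 2 libraries and describe the error of counting alone, as PCR copies of 1 molecule cannot be recognised here. Both later ratios use the same P0 library. In RNA from a culture, fewer cells in S phase and less histone RNA per cell cannot be told apart.

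**Figure D1:**
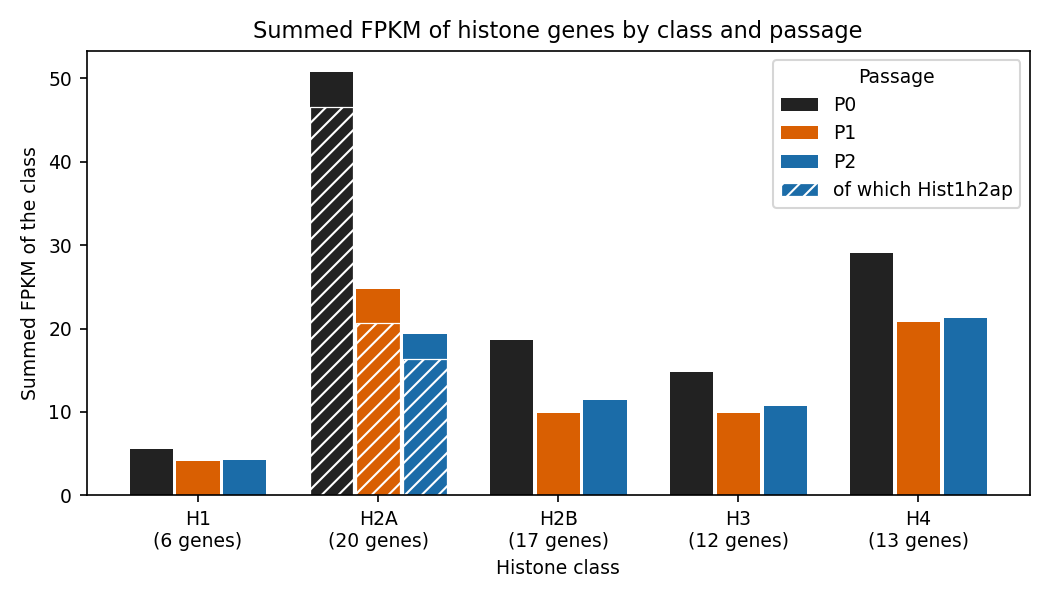
Bars give FPKM summed over the genes of each histone class (x axis) at P0, P1 and P2, 1 library each, so there is no error bar; white hatching marks Hist1h2ap within H2A. All 5 classes have their highest bar at P0, and Hist1h2ap makes up most of the H2A bars.

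A gene was called changed, in what follows, when log2(FPKM + 1) differed by at least 1 between libraries, and 1 or both of them had 1 FPKM or more. This scale understates the change of low genes. Of 20 histone genes compared between P0 and P1, 3 fell (Hist1h2ap, Hist1h2bc and Hist1h3g) and 0 rose, whereas 0.549% of all 13288 genes compared fell and 4.12% rose. Of 21 compared between P0 and P2, 1 fell, Hist1h2ap, and 0 rose, beside 1.16% and 6.72% of 13472. In either direction, 4.67% of all genes changed by P1 and 7.88% by P2. Between P1 and P2, 0 of 17 changed in either direction, beside 0.883% lower and 0.78% higher (1.66% in all) of 13585. With quantile normalization the split of all genes was 129 lower and 384 higher at P1, against 73 and 548, and 260 and 621 at P2, against 156 and 905.

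Counting every gene compared, those past the threshold included, most were lower at P1 and P2 than at P0. At P1, 17 of the 20 were lower than at P0, with a median log2 difference of -0.35, while 42.4% of all genes were lower and their median was 0.06. At P2, 17 of 21 were lower, with a median of -0.34 beside 0.07 for all genes. Against P1, 7 of 17 were lower at P2, with a median of 0.06. In each comparison with P0, 6 genes passed the floor only through P0, and these sets differ in part. Hist1h3g, which fell by P1, and Hist3h2ba are among those in both. The counts without a floor are therefore also given. With every gene above 0 in either library, 40 of 52 were lower at P1 (76.9%, beside 39.7% of all genes) and 38 of 53 at P2 (71.7%, beside 37.4%). The 33 genes that stayed under 1 FPKM summed to 13.4, 8.13 and 8.87 FPKM, from 203, 101 and 129 reads in libraries of unlike size.

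**Figure D2:**
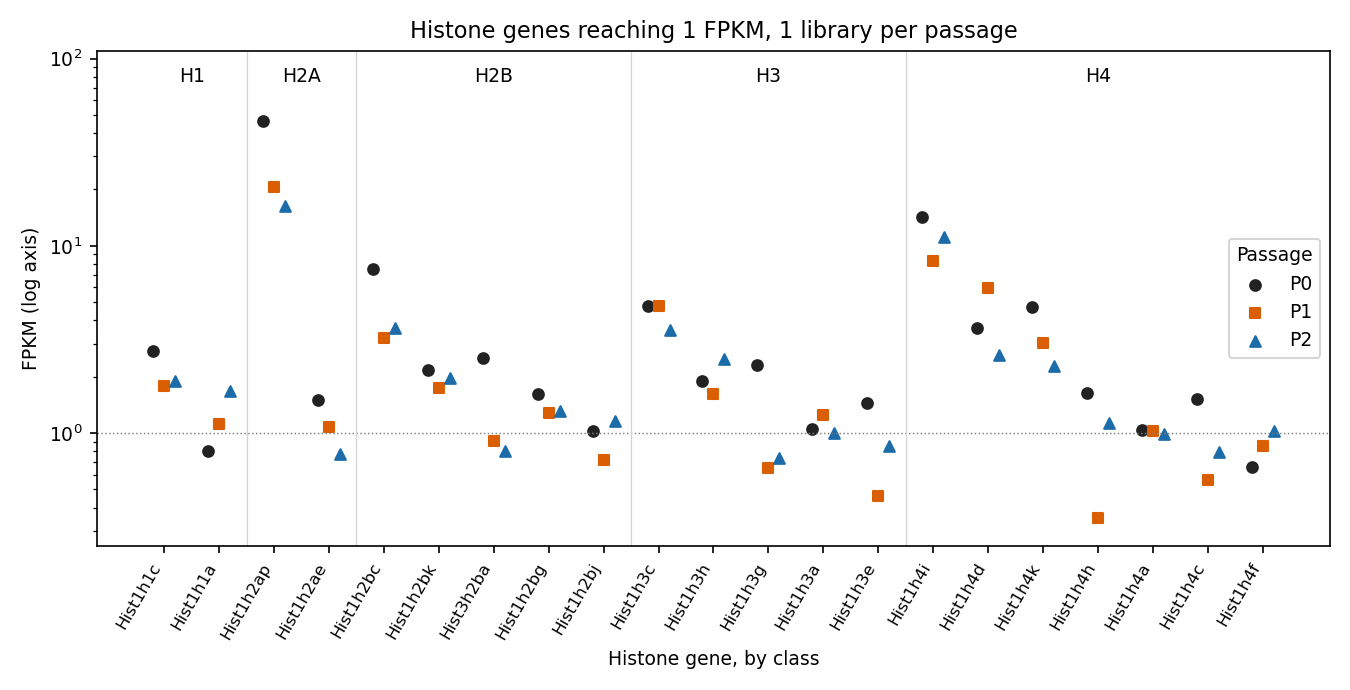
FPKM (log axis) of the 21 histone genes that reached 1 FPKM in 1 or more libraries, ordered by class and level, with 1 point for each passage and a dotted line at 1 FPKM. Hist1h2ap stands at the top with 46.6 FPKM at P0 and 16.3 at P2, Hist1h4i is next, and the P0 point is the highest for most genes.

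H2A and H2B form the dimers that are the most easily exchanged part of the nucleosome. H2A was the class with the most FPKM at P0, 50.8, and measured 24.8 at P1 and 19.3 at P2. One gene, Hist1h2ap, carried most of this. It measured 46.6 FPKM at P0, 20.7 at P1 and 16.3 at P2, from 521, 180 and 176 reads, and was the highest histone gene in all 3 libraries. It fell 2.25-fold by P1 (interval 1.90 to 2.68) and 2.86-fold by P2 (2.40 to 3.41). At P2 it was 1.27-fold below P1, with an interval of 1.03 to 1.57. Its share of all histone FPKM was 39.2% at P0, 29.8% at P1 and 24.3% at P2.

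The assignment of reads to this gene is uncertain. Of its 433 stretches of 50 bases, 6.93% occur in no other annotated transcript. It shares 93.1% of them with Hist1h2ao, which was listed at 0 in all 3 libraries, and 72.3% with Hist1h2ag, at 0.444 FPKM at P0. How reads matching several places were treated is not stated in the labels. Hist1h2ap also overlaps exons of Gm44466 on the opposite strand, and the effect of this on its reads was not tested. The other 19 H2A genes summed to 4.21, 4.09 and 3.05 FPKM. Without Hist1h2ap the H2A reads were 0.848 of P0 at P1 and 0.642 at P2, and both intervals (0.529 to 1.34 and 0.397 to 1.03) include 1. Hist1h2ae, the other H2A gene that reached 1 FPKM, measured 1.498, 1.08 and 0.776 FPKM from 16, 9 and 8 reads.

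H2B genes summed to 18.7, 9.84 and 11.4 FPKM, and their reads were 0.570 of P0 at P1 (interval 0.456 to 0.708) and 0.603 at P2 (0.493 to 0.736). Hist1h2bc was the highest of them, with 7.55 FPKM at P0, 3.24 at P1 and 3.64 at P2. It fell 2.33-fold by P1 (interval 1.64 to 3.38) and was 2.08-fold lower at P2 (1.52 to 2.87), where its log2 difference of -0.88 did not reach the threshold. Its M21 transcript holds no match to the stem-loop motif. Hist3h2ba, from the small Hist3 cluster, measured 2.53, 0.902 and 0.7996 FPKM from 36, 10 and 11 reads, with log2 differences of -0.89 and -0.97. Its P0 value stood apart from both later ones, and the read ratio at P2 was 0.317 of P0 (0.145 to 0.636). In both comparisons it passed the floor only through P0. Hist1h2bk, Hist1h2bg and Hist1h2bj had P2 to P0 ratios nearer 1, at 0.907, 0.806 and 1.13.

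H3 and H4 form the tetramer at the core of the nucleosome. H3 genes summed to 14.7, 9.84 and 10.7 FPKM, with reads at 0.629 of P0 at P1 (interval 0.482 to 0.814) and 0.723 at P2 (0.572 to 0.912). The highest, Hist1h3c, measured 4.76, 4.76 and 3.56 FPKM, so P0 and P1 were level. Hist1h3g measured 2.32 FPKM at P0, 0.648 at P1 and 0.732 at P2, from 23, 5 and 7 reads. It fell 3.58-fold by P1, with a wide interval of 1.33 to 12.1. Hist1h3e measured 1.44, 0.464 and 0.854 FPKM and Hist1h3b, under 1 FPKM, had 14, 2 and 2 reads. Hist1h3h had its highest value at P2, with 1.89, 1.62 and 2.50 FPKM, and the interval of its P2 to P0 ratio ran from 0.684 to 2.60. Hist1h3a was nearly level at 1.05, 1.24 and 1.003 FPKM.

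H4 genes summed to 29.1, 20.8 and 21.3 FPKM, with reads at 0.669 of P0 at P1 (interval 0.562 to 0.794) and 0.751 at P2 (0.642 to 0.877). Hist1h4i was the second highest histone gene, with 14.2 FPKM at P0, 8.30 at P1 and 11.2 at P2. Its ratios to P0 were 0.584 at P1 (0.461 to 0.735) and 0.786 at P2 (0.644 to 0.957), so P1 was its lowest library and P2 lay between. Hist1h4d had another order, with 3.62, 5.92 and 2.61 FPKM. It was the only H4 gene above 2 FPKM whose highest library was P1, and its P2 to P1 ratio was 0.441 (0.253 to 0.751), a log2 difference of -0.94 that did not reach the threshold. Hist1h4k measured 4.69, 3.02 and 2.29 FPKM and its P2 to P0 ratio was 0.488 (0.251 to 0.908). Hist1h4h measured 1.64, 0.351 and 1.13 FPKM, from 18, 3 and 12 reads. Hist1h4a and Hist1h4f lay between 0.661 and 1.04 FPKM in all libraries, and Hist1h4c measured 1.53, 0.561 and 0.791.

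H1 histones bind the linker DNA between nucleosomes. The class summed to 5.51, 4.16 and 4.28 FPKM, with reads at 0.709 of P0 at P1 (interval 0.533 to 0.938) and 0.729 at P2 (0.560 to 0.945). Hist1h1c measured 2.73, 1.77 and 1.89 FPKM from 99, 50 and 66 reads. Hist1h1a measured 0.805, 1.12 and 1.67 FPKM from 12, 13 and 24 reads, so its highest library was P2. Hist1h1e had its lowest library there, with 12, 3 and 1 reads. Hist1h1t, a form known from the testis, had 3, 1 and 0 reads.

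**Figure D3:**
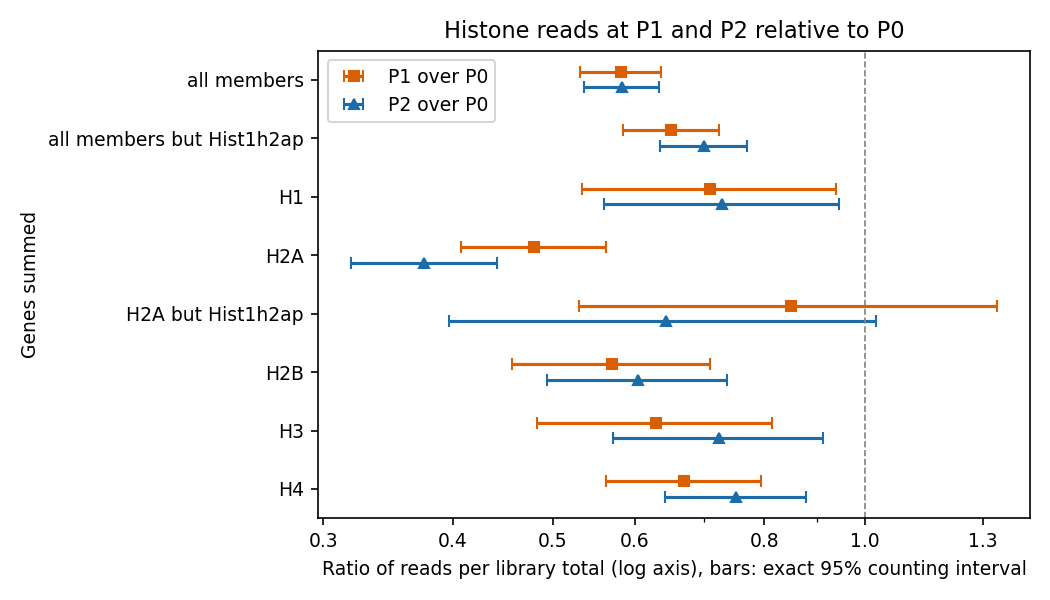
Ratio of histone reads per library total at P1 (squares) and P2 (triangles) to P0, on a log axis, for all genes, each class and the sums without Hist1h2ap; bars are exact 95% intervals for counting error, with the dashed line at 1. The sums of all genes and of the 5 classes lie below 1 with their intervals, while H2A without Hist1h2ap has intervals that include 1. The other classes are not drawn without their highest gene.

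Differences between classes were read only from these sums. The read ratio of H2A at P2, 0.376 (interval 0.319 to 0.441), did not overlap the intervals of the other 4 classes, but this rests on Hist1h2ap. Without it the sum of all histone genes was 72.2, 48.7 and 50.7 FPKM, and its reads were 0.650 of P0 at P1 (0.584 to 0.723) and 0.699 at P2 (0.634 to 0.770). Leaving out the highest gene of each class gave summed FPKM ratios of P1 to P0 of 0.861 (H1), 0.972 (H2A), 0.595 (H2B), 0.509 (H3) and 0.840 (H4). The same ratios of P2 to P0 were 0.861, 0.723, 0.703, 0.714 and 0.678. Of these sums, only that of H2A was given a counting interval.

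By cluster, nearly all signal came from Hist1, which held 97.3% of the summed FPKM at P0 and 97.6% and 97.8% at P1 and P2. The 10 Hist2 genes summed to 0.343, 0.567 and 0.595 FPKM from 15, 25 and 21 reads, and 6 of them were listed at 0 in all libraries. Hist2h2be had 11, 22 and 10 of these reads. The Hist3 genes summed to 2.71, 0.979 and 0.841 FPKM, nearly all from Hist3h2ba. Hist4h4 had 11, 5 and 4 reads.

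Near-identical copies bear on the genes at 0. Among the 14 genes listed at 0 in all libraries, a median of 15.8% of stretches of 50 bases were found in no other gene, against 51.8% among the 54 genes above 0. In 10 of the 14 this share was under 50%. The pairs Hist2h2aa1 and Hist2h2aa2, and Hist1h2bq and Hist1h2br, belong here, so their zeros cannot be read as missing messages. The 4 others, Hist1h2aa, Hist1h2ba, Hist2h2ab and Hist3h2bb-ps, were mostly unique in sequence. Of these, Hist1h2aa and Hist2h2ab overlap exons of Gm44344 and Gm15444 on the opposite strand, while Hist1h2ba and Hist3h2bb-ps have no such overlap. Among all the histone genes, 23 overlap exons of another gene on the opposite strand and 7 on the same strand. Neither strand nor counting program is stated, and the effect of such overlaps on the zeros was not tested. Hist1h2aa and Hist1h2ba encode histones known from the testis.

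The annotated 3′ ends were set beside the levels, as a description of the M21 models. A poly(A) signal (AATAAA or ATTAAA) stood in the last 50 bases of 17 genes, which were grouped by it whether or not they had a stem-loop. Of the rest, 15 ended within 50 bases of the stem-loop, 13 had a stem-loop with a longer model and 23 had neither feature. The poly(A) group holds 2 genes, Hist1h2bp and Hist1h4h, that also end within 50 bases of the stem-loop. Median FPKM at P0 was 0.181 for those with a poly(A) signal, 0.444 for those ending at the stem-loop, 0.811 for the longer models and 0.319 for the rest. Of the 2 highest genes, Hist1h2ap ends 3 bases after its stem-loop, while the model of Hist1h4i runs 330 bases past its stem-loop to a poly(A) signal. With no floor, 12 of 14 genes with a poly(A) signal were lower than P0 at P1 and 12 of 14 at P2. Of those ending at the stem-loop, 7 of 10 and 7 of 11 were lower, and of the longer models 11 of 12 and 10 of 13. Genes with neither feature were lower in 10 of 16 and 9 of 15 cases, beside 39.7% and 37.4% of all genes. The difference between these groups was not tested. The authors' own models may differ, as no length within 1 base of the M21 mean gave whole reads for 19 genes. These include most of the genes with longer models, such as Hist1h4d, Hist1h1d, Hist1h2ac and Hist1h3d. The FPKM of that group may thus rest on other models than those that define it.

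**Figure D4:**
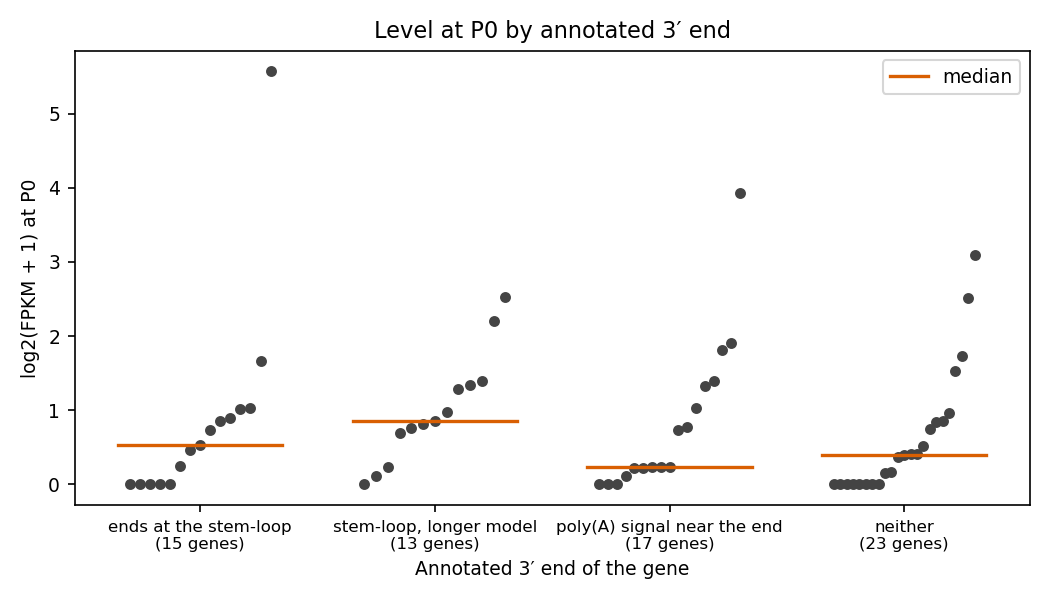
Each point is 1 histone gene, placed by its annotated 3′ end (x axis) and its log2(FPKM + 1) at P0 (y axis); orange lines mark group medians. All 4 groups include genes near 0, and the 2 highest points, Hist1h2ap and Hist1h4i, belong to the groups ending at the stem-loop and with a poly(A) signal.

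The labels name total RNA and do not say whether poly(A) selection followed. Of 16 other RNAs without poly(A) tails in the table, 7 were at 0 in all libraries, among them Rmrp, Rn7s1 and Rnu7, the RNA that guides histone 3′ end formation. Rn7sk measured 6.90, 8.53 and 7.28 FPKM, Malat1 49.7, 76.3 and 44.3 and Rpph1, the RNase P RNA, 22.3, 16.0 and 12.2. The list summed to 85.1, 115 and 72.1 FPKM, highest at P1. There 1 of 6 compared rose (Rnu73b, from 2.43 to 7.80 FPKM) and 0 fell, beside 4.12% and 0.549% of all genes. At P2, 1 of 8 compared rose and 1 fell relative to P0, beside 6.72% and 1.16%. Terc, the telomerase RNA, rose from 0.713 to 3.69 FPKM and Rnu73b fell from 2.43 to 0.629 FPKM. Reads were not recovered for this list, so the counting error of these low genes is not given. The part of library preparation in the histone values was not tested.

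Promoters are shown for genes that differed in their course over the passages. RefSeq promoter entries (GRCm38.p6) matched 60 of the 68 genes, and 250 bases before the start were searched on both strands. The CCAAT box stood in 81.7% of them, beside 33.8% of 32851 promoters of all genes, and in all 18 H2A, 14 H2B and 6 H1 promoters but 3 of 12 of H4. The TATA box (TATAAA) stood in 48.3%, beside 12.4%. The octamer ATTTGCAT, known from H2B promoters, was found in 7 H2A, 5 H2B and 0 H1, H3 or H4 promoters, 12 of 60 in the set beside 526 of 32851. H2A and H2B entries overlap where the genes stand head to head. There were 13 such pairs with starts within 500 bases, all of them 1 H2A and 1 H2B gene. GGTCC, part of an element known from H4 promoters, stood in 11 of 12 H4 promoters and in 39.8% of all. The last 120 bases before the start are printed 5′ to 3′, with the TATA box, the CCAAT box and the octamer on either strand in capitals, and the H4 element only for H4 genes.
Hist1h2ap: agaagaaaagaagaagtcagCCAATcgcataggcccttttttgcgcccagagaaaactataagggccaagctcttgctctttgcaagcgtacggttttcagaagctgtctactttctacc
Hist3h2ba: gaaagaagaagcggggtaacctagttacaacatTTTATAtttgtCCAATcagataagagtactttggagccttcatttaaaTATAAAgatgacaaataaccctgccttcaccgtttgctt
Hist1h2bk: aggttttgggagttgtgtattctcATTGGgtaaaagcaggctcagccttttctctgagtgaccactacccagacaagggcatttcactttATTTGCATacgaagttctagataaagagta
Hist1h4i: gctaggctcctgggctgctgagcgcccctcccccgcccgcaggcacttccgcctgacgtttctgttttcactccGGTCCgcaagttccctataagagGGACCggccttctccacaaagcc
Hist1h4d: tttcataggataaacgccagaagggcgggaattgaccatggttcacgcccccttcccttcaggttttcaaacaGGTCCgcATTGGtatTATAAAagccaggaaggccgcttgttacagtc
They lie at chr13:21833476-21833595 (minus strand), chr11:58948791-58948910 (plus), chr13:22035701-22035820 (plus), chr13:22041363-22041482 (minus) and chr13:23581448-23581567 (plus). The CCAAT box stands in the promoters of Hist1h2ap and Hist3h2ba, both lower at P1 and P2. It also stands in that of Hist1h2bk, whose ratio to P0 at P2 was 0.907. As all H2A and H2B promoters searched hold it, these genes cannot show whether it goes with the course. Hist1h4i, lowest at P1, has 0 CCAAT boxes in the bases searched. Hist1h4d, highest at P1, holds the CCAAT box, the TATA box and the H4 element. A match is a description of these letters and not a test of binding.

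Some head-to-head partners stood at unlike levels. Hist1h2bc, at 7.55 FPKM, faces Hist1h2ac, at 0.181, with starts 251 bases apart. Hist1h2bk, at 2.17 FPKM, faces Hist1h2ah, at 0.319. Of their stretches 25.8% and 9.27% were unique, so the levels of this pair are uncertain. Hist1h2bg and Hist1h2ae, the pair in which both genes reached 1 FPKM, stood at 1.63 and 1.498 FPKM, and both were lower at P1 and P2 than at P0. Hist1h2ap faces Hist1h2br, but with 6.93% and 11.3% of their stretches unique, their levels were not compared.

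Of 26 genes compared that act in making and processing histone messages, 0 changed in any of the 3 comparisons, a count near the share over all genes (4.67% at P1, 7.88% at P2 and 1.66% between P1 and P2). Their medians were 0.05 at P1 and 0.06 at P2, beside 0.06 and 0.07 for all genes. Slbp, the stem-loop binding protein, measured 75.5, 91.2 and 102 FPKM, higher at P1 and P2 while the histone sum was lower. Npat, the coactivator of histone gene transcription at the histone locus body, measured 20.4, 19.8 and 20.2 FPKM. Lsm11, a protein of the U7 particle, measured 3.997, 2.48 and 2.74 FPKM. The largest differences at P2 were in Zfp473, which acts in histone 3′ end formation (0.51), Ccne2, a cyclin E (0.51), Tut7, a uridylyltransferase (0.49), and Slbp (0.43).

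Histone chaperones, which carry new histones to DNA, had 0 of 28 changed, again near the share over all genes, and medians of -0.03 and -0.04. Anp32b, Set and Anp32e measured 523, 377 and 352, 1841, 1442 and 1261, and 284, 218 and 198 FPKM, with log2 differences at P2 of -0.57, -0.55 and -0.52. Dnajc9 had a difference of 0.53. S phase genes were mostly higher, in 31 of 39 compared at P1 and 32 of 40 at P2, with medians of 0.15 and 0.22. Of all genes, 42.4% and 42.3% were lower, with medians of 0.06 and 0.07. Past 2-fold were 0 S phase genes, beside 4.67% and 7.88% of all genes. With median-of-ratios scaling the S phase medians were 0.03 and 0.09, beside -0.05 and -0.05 for all genes. Rfc2, Cdc6, Ccne2 and Ung had the largest of these differences at P2, 0.58, 0.57, 0.51 and 0.46. The S phase genes were thus mostly higher in the 2 libraries where the histone sum was lower. The list shares Slbp, Ccne1, Ccne2, Chaf1a and Chaf1b with the lists before it.

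Variant histone genes are expressed outside S phase as well and mostly have poly(A) tails. They were lower in 10 of 11 cases compared at P1 and 8 of 11 at P2, beside 42.4% and 42.3% of all genes. Their medians were -0.36 and -0.26, beside 0.06 and 0.07. H2afy2 and H1f0 fell in both comparisons with P0, to 6.71 and 8.39 FPKM at P2. These were 2 of 11, beside 0.549% and 1.16% of all genes. H2afz, the most abundant, measured 1640.5, 1215 and 1101 FPKM, and H1fx 11.6, 8.87 and 6.45. H2afj was higher, at 13.1, 19.3 and 23.4 FPKM, and H3f3b was level at 386, 382 and 400.3.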

How the data were processed

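The authors deposited FPKM values for 50043 gene IDs in 3 libraries. Per the submitters' processing notes, Bowtie2 2.0.6, TopHat2 2.0.9 and mm9 were used; the notes and labels name no counting program, annotation or strand. Symbols, models and transcripts came from GENCODE M21 (49326 IDs matched) and promoters from RefSeq, both on GRCm38, so none of the coordinates come from the authors' build.

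Library totals are those that turn FPKM into whole reads at M21 mean lengths, within a relative tolerance of 1e-06. Of IDs above 0, 40.6, 40.8 and 42.0% were whole at P0, P1 and P2. For histone genes the read ratios fix reads up to a common factor. It was set by the M21 length within 1 base (35 genes) or, for 19 genes, the smallest whole length covering the coding sequence, which may understate reads. The pseudocount was 1 and the floor 1 FPKM. Other settings tried were no floor or one of 5, 0.1 as pseudocount, median-of-ratios scaling, quantile normalization and leaving out the highest gene of each class. Leaving out genes with under 50% unique stretches was chosen after seeing the data. Steps were tested on simulated data.

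The genes and lists were chosen with earlier results of these data known. Named genes are histone genes with 5 FPKM or more or past 2-fold, up to 4 of each other list with the largest P2 to P0 change, Slbp and Npat; other names were chosen after their values were seen. The tools were matplotlib 3.10.9, pandas 2.3.3, scipy 1.17.1 and numpy 2.4.6 under Python 3.11.15.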

Additional observations from a re-analysis of the deposited data

How the results depend on the processing

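No paired analysis was possible because each passage has 1 library. At no setting did a histone gene rise past 2-fold between P0 and either later passage, and the medians against P0 stayed below 0. Genes that fell by P1 numbered 3 of 20. The count was 5 of 26 with quantile normalization, 7 of 20 with a pseudocount of 0.1 and 1 of 13 among genes with 50% or more unique stretches. Over all genes, 73 of 13288 became 129 of 13421 with quantile normalization and 175 of 13288 with a pseudocount of 0.1. At P2 the histone count of 1 of 21 became 3 of 21 with median-of-ratios scaling and 4 of 26 with quantile normalization. It was 5 of 21 with a pseudocount of 0.1 and 0 of 14 among the more unique genes. Over all genes, 156 of 13472 became 206 of 13446, 260 of 13554 and 286 of 13472 with the scaling, quantile normalization and the pseudocount of 0.1. Between P1 and P2, a pseudocount of 0.1 gave 1 lower and 1 higher of 17, beside 265 lower and 370 higher of 13585 genes. The median of -0.35 at P1 was -0.51, -0.61, -0.53, -0.86 and -0.21 with median-of-ratios scaling, quantile normalization, a pseudocount of 0.1, a floor of 5 (4 genes) and no floor. At P2, -0.34 became -0.45, -0.60, -0.45, -0.88 and -0.18 in that order, and P2 against P1 gave -0.33 with a floor of 5. The summed FPKM ratio of P1 to P0, 0.584, was 0.509 with quantile normalization, 0.714 without the highest gene of each class and 0.693 among the more unique genes. That of P2 to P0, 0.564, was 0.515 with median-of-ratios scaling and 0.476, 0.709 and 0.713 in that order. Class ratios moved too. Among the more unique genes, P1 to P0 went from 0.488 to 0.657 for H2A and from 0.667 to 0.909 for H3. The H2A ratio of P2 to P0 went from 0.381 to 0.465. Quantile normalization moved H2B from 0.527 to 0.427 at P1. It moved H2B, H3 and H4 from 0.614, 0.725 and 0.731 to 0.477, 0.560 and 0.618 at P2. Without its highest gene, the H4 ratio of P2 to P1 went from 1.02 to 0.807. Median-of-ratios scaling moved the median of all genes from 0.06 to -0.05 at P1 and from 0.07 to -0.05 at P2. Depth limits the low genes most, 57 having under 20 reads at P0.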
